A study of Mus musculus with 2 samples.

Results

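Transcripts of the matrix metalloproteinases (MMPs), the ADAMTS proteases and the tissue inhibitors of metalloproteinases (TIMPs) were compared between WT and Igfbp7-/- mammary epithelial cells (MECs). The members were taken by gene symbol and not by their values, and they were 46 of the 25810 genes named in the libraries, made up of 23 Mmp, 19 Adamts and 4 Timp genes. The cells came from the inguinal mammary glands of mice on day 3 of lactation, and cells carrying the lineage markers of leukocytes, endothelial cells and erythroid cells were depleted with magnetic beads (CD45, Ter119 and, by the methods of the study, CD31, in place of which the labels name CD35). There were 2 libraries of poly(A) RNA, 1 from wild type mice and 1 from mice that lack Igfbp7 in every tissue because its first coding exon was deleted. The labels give a C57BL/6 background for both, whereas the methods of the study say that the knockout was made on CD1, and neither gives the age of the mice or how many animals were pooled. Igfbp7 itself had 5224 reads in the WT library, compared with 37 in the Igfbp7-/- library.

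MMPs are zinc-dependent endopeptidases that are made as inactive precursors and cut collagens, laminins, proteoglycans and other components of the extracellular matrix. Some are secreted and others are anchored in the cell membrane. ADAMTS proteases are secreted relatives with thrombospondin repeats, and they are best known for cutting proteoglycans such as versican and aggrecan and for trimming procollagens. TIMPs bind the active site of these enzymes and block it. In the mammary gland, these families are known for remodeling the basement membrane and stroma during branching and after weaning, when the alveoli regress.

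Values are RPM (read counts scaled to the mapped reads of a library) as deposited, with RPKM, the same value per kilobase of gene length, used wherever levels of different genes are compared. The libraries held 34327854 mapped reads for WT and 35016847 for Igfbp7-/-, so that 1 read was worth 0.0291 and 0.0286 RPM. A gene was counted as lower or higher in the Igfbp7-/- library when it reached 1 RPM in at least 1 library and its ratio, after 0.1 RPM was added to both values, was 1.5 or more in either direction. Each genotype had 1 library, so no difference has a replicate check and no test between genotypes could be made. The intervals are 95% Clopper-Pearson intervals of the log2 ratio on read pairs and cover counting error only.

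Of the 46 members, 38 reached 1 RPM in at least 1 library. Among these, 22 (57.9%) were lower in the Igfbp7-/- library, while 23.0% of all 14026 genes past the same minimum were lower. Only 5 members (13.2%) were higher, against 21.4% of all genes, and 11 differed by less than 1.5 times. Only 32 members reached 1 RPM in both libraries, of which 19 (59.4%) were lower and 3 higher. Of all genes that reached 1 RPM in both, 20.1% were lower and 19.9% higher. The median log2 ratio was -0.73 for the members and 0.03 for all genes. Apart from Mmp2, the proteases with the highest RPKM in WT, namely Mmp3, Adamts1, Mmp14, Adamts4, Mmp12 and Mmp13, were all among the lower members, and so was the inhibitor Timp3. Picking genes by their WT level favors low ratios, because the ratio is taken over WT. By RPKM in Igfbp7-/-, Mmp12 and Mmp13 ranked 12 and 15 among the 46 members. Mmp19, which lay within 1.5 times, ranked 8. When RPM were rescaled to the listed genes minus ribosomal and small nuclear RNA, a choice added after the data were seen, the median of all genes moved by 0.20, 18.4% of all genes were lower and 31.3% higher, and 17 members (43.6%) were lower and 5 higher.

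**Figure D1:**
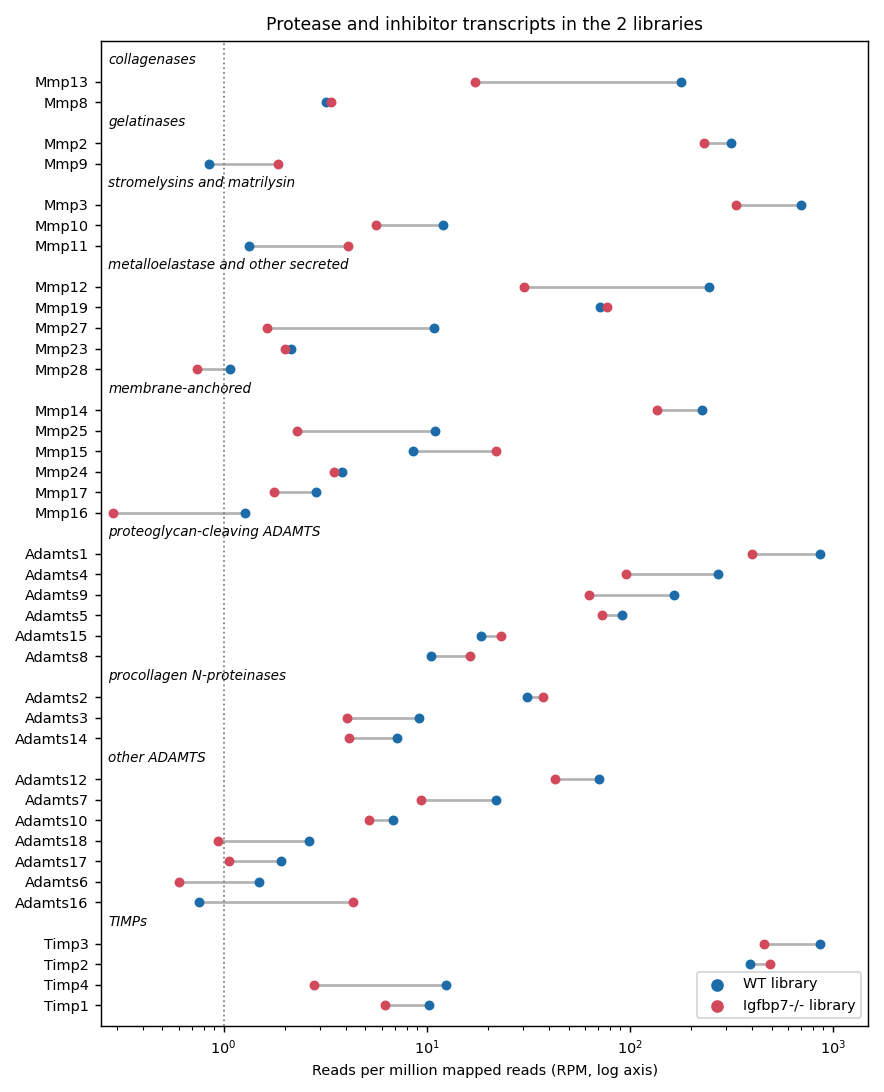
RPM of the 38 members past 1 RPM in the WT (blue) and Igfbp7-/- (red) library, on a log axis and grouped by role; each point is 1 library and the dotted line is 1 RPM. Mmp13 and Mmp12 show the widest gaps among the abundant genes, whereas Mmp2, Mmp19 and Timp2 lie close together in both libraries.

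Counting error was small for the abundant members. Of the 22 lower members, 21 had an interval wholly below 0, and Adamts17 was the exception. All 5 higher members had intervals above 0. Among the 11 members within 1.5 times, 6 had intervals that left out 0, so their small differences exceeded the sampling of reads without reaching the ratio used here. The 8 members below 1 RPM in both libraries had between 0 and 31 reads and were 5 Mmp and 3 Adamts genes. Apart from Mmp1b, no difference among these genes was detectable at this depth.

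**Figure D2:**
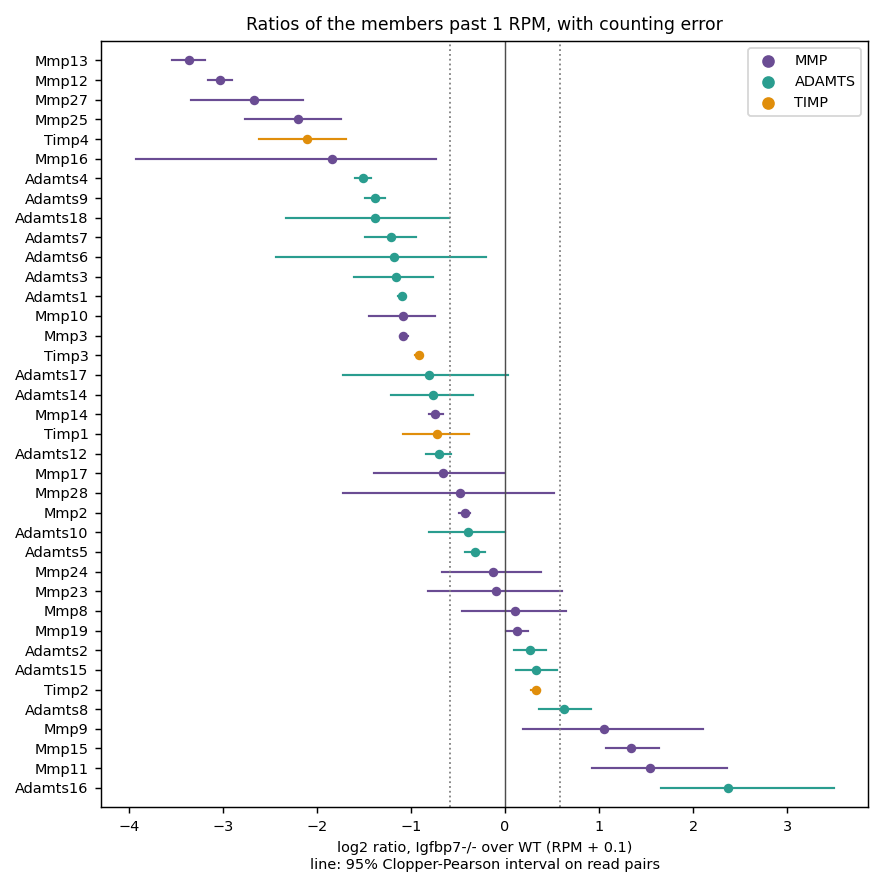
Log2 ratio of Igfbp7-/- to WT for the 38 members past 1 RPM, sorted, with MMPs in purple, ADAMTS proteases in green and TIMPs in orange; lines are 95% intervals on read pairs and dotted lines mark 1.5 times. The ratios run from -3.36 for Mmp13 to 2.37 for Adamts16, and most points lie left of 0.

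A run of 10 MMP genes lies side by side on chromosome 9, at chr9:7272514-7699585 of the NCBIM37 mouse build, 427.1 kb in all, with 9 of them on the plus strand and Mmp1b on the minus strand. This cluster holds collagenases, stromelysins, matrilysin and the macrophage metalloelastase, and it was singled out after the values were seen. Of its 10 genes, 6 reached 1 RPM, 5 of these were lower in the Igfbp7-/- library and none was higher, where 23.0% of all genes were lower and 21.4% higher. The 120 bases before the RefSeq start of 9 of these genes are printed here because AP-1, a dimer of Fos and Jun proteins, is a textbook regulator of several MMP promoters. They are from GRCm38.p6, on the strand of the gene, and the capitals mark TGACTCA or its reverse complement TGAGTCA. Coordinates are chr9:7272394-7272513 for Mmp13, chr9:7347254-7347373 for Mmp12, chr9:7388027-7388146 on the minus strand for Mmp1b, chr9:7445702-7445821 for Mmp3, chr9:7464021-7464140 for Mmp1a, chr9:7502222-7502341 for Mmp10, chr9:7558309-7558428 for Mmp8, chr9:7571276-7571395 for Mmp27 and chr9:7691970-7692089 for Mmp7.
Mmp13: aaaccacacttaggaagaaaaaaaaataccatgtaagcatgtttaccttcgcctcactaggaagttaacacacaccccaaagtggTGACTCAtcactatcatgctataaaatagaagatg
Mmp12: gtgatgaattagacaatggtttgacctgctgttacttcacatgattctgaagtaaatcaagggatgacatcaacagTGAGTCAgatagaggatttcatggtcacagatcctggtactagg
Mmp1b: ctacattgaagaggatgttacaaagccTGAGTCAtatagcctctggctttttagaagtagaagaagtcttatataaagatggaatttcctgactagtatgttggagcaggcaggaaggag
Mmp3: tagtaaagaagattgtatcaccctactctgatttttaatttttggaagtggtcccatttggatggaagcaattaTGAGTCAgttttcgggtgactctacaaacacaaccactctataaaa
Mmp1a: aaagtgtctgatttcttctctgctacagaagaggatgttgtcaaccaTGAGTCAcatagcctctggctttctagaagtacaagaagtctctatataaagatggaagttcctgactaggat
Mmp10: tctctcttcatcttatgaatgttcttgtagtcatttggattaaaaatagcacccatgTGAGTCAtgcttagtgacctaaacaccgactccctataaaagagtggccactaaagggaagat
Mmp8: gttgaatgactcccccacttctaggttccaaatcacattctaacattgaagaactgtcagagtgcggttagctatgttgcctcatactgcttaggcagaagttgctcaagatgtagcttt
Mmp27: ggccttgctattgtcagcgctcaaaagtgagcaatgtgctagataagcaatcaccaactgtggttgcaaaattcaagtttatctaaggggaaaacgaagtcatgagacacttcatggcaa
Mmp7: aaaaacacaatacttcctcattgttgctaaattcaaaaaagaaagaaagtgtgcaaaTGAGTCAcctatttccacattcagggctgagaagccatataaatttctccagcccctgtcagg

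Within the 250 bases before a start, searched on both strands, the AP-1 letters TGACTCA stood in 7 of the 10 cluster genes and in none of the 22 members outside the cluster whose promoter was in the table. Over all 32851 promoters of this length, 4.46% held them, a share counted per promoter and not per gene. Only 32 of the 46 members had a promoter to search, including all 10 cluster genes. Outside the cluster, Mmp2, Mmp9, Mmp19 and Adamts4 were among the members without one. The matches began between 35 and 93 bases before the start. Mmp12 and Mmp7 have 2 RefSeq starts each and held the letters before 1 of them, which is the one printed. A gene was scored when either start matched, and for Mmp12 the match lay before the start further along the gene. The letters stood before Mmp13, Mmp12, Mmp3 and Mmp10, which were lower in the Igfbp7-/- library, and before Mmp1a, Mmp1b and Mmp7, which stayed under 1 RPM. They were not found in the windows of Mmp27, which was also lower, of Mmp8, which was not, or of Mmp20, which had no reads. The STAT letters TTCNNNGAA, read on both strands, were in 7.02% of all promoters and in 1 of the 25 members past 1 RPM with a promoter, Mmp23. A match of letters is a description of the sequence, and binding was not measured.

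Mmp13, the main interstitial collagenase of the mouse, had the lowest ratio of the 38 members past 1 RPM. It had 6161 reads (179.5 RPM) in the WT and 609 reads (17.4 RPM) in the Igfbp7-/- library, 10.3 times lower (log2 ratio -3.36, interval -3.54 to -3.19). Only 0.670% of all genes past the minimum had a lower ratio. Its neighbor Mmp12, the macrophage metalloelastase, which cuts elastin, went from 8471 reads (246.8 RPM) to 1057 reads (30.2 RPM), 8.18 times lower (-3.03, -3.16 to -2.90). Mmp27, further along the cluster, is a little studied member related to the stromelysins. It had 373 reads (10.9 RPM) in WT against 57 reads (1.63 RPM) in Igfbp7-/- (-2.67, -3.34 to -2.15). These genes lie on either side of Mmp3 and Mmp10, and their intervals do not overlap those of Mmp3 and Mmp10.

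The stromelysins Mmp3 and Mmp10 have a broad range of matrix substrates and can activate other MMP precursors. Mmp3 had the highest RPKM of all 46 members in both libraries, 377.8 in WT and 179.0 in Igfbp7-/-. It was covered by 24097 and 11645 reads, a difference of 2.11 times (-1.08, -1.12 to -1.03). Mmp10, at a much lower level of 7.01 and 3.27 RPKM, differed to nearly the same degree, 2.14 times (-1.09, -1.45 to -0.74). The longest annotated transcripts of Mmp3 and Mmp10 were 81.2% identical over 1338 aligned bases, and how reads with several matches were counted is not given in the sources used here. Mmp8, the neutrophil collagenase, had 109 reads in WT against 119 reads in Igfbp7-/-, and its interval, -0.46 to 0.65, held 0. Thus within the cluster the ratios of 2 neighboring genes, Mmp8 and Mmp27, were far apart.

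The remaining cluster genes had few reads. Mmp1b, a rodent homolog of interstitial collagenase, had 26 reads in WT against 2 reads in Igfbp7-/-, a ratio of 13.3 times with a log2 interval of -9.14 to -0.99. Its annotated exons share 157 bases with those of Mmp12 on the opposite strand, so reads of both genes may be mixed if strand was not used in counting. Mmp1a, which was 90.5% identical to Mmp1b over 1453 aligned bases, had 6 reads in WT and none in Igfbp7-/-, at least 2.04-fold lower when 3 reads are taken as the floor of a library, although its interval reached up to 1.25. Mmp7 (matrilysin) had no reads in WT against 9 reads in Igfbp7-/-, at least 2.94-fold higher by the same floor, although its interval reached down to -0.15. Mmp20 (enamelysin), a tooth enamel protease, had no reads in either library, which allows up to 0.0874 RPM in WT against 0.0857 RPM in Igfbp7-/-.

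The genes on both sides of the cluster had higher ratios than Mmp3 and Mmp10. Of 9 other protein-coding genes with a start or end within 500 kb of it, all past 1 RPM, 2 were lower, 2 were higher and 5 lay within 1.5 times. Their log2 ratios ran from -0.76 to 0.94. The nearest of them before Mmp13, Dcun1d5, a regulator of cullin neddylation, had a log2 ratio of -0.28, and Tmem123, past Mmp7, had -0.76. Birc2 and Birc3, inhibitors of apoptosis further along, had 0.19 and 0.51.

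**Figure D3:**
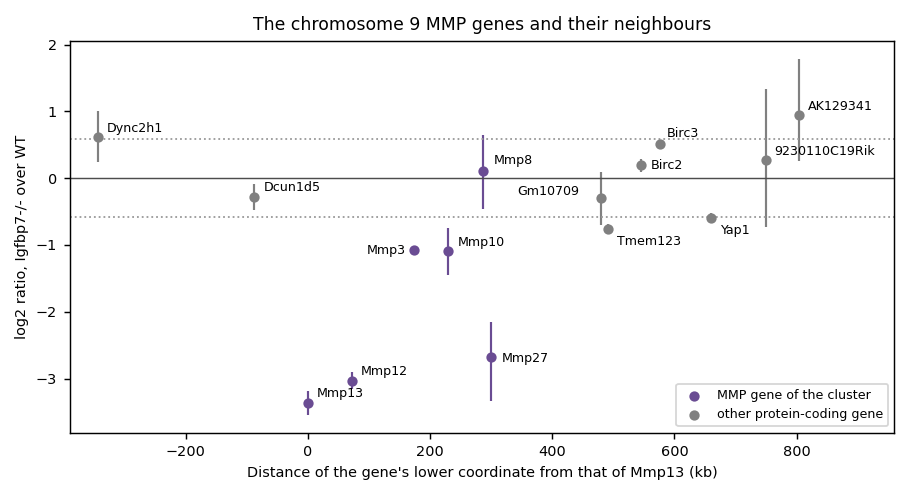
Log2 ratio of Igfbp7-/- to WT for the MMP genes of the chromosome 9 cluster past 1 RPM (purple) and other protein-coding genes within 500 kb (gray), against the distance in kb of the lower coordinate of each gene from that of Mmp13; lines are 95% intervals on read pairs and dotted lines mark 1.5 times. Mmp13, Mmp12 and Mmp27 lie below -2.6, Mmp3 and Mmp10 near -1.1, and no gray gene lies below -0.76.

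Of the 12 MMP genes outside the cluster past 1 RPM, 4 (33.3%) were lower, 3 (25.0%) were higher and 5 lay within 1.5 times, with a median log2 ratio of -0.28. Over all genes, 23.0% were lower and 21.4% higher. The gelatinases cut denatured collagen and basement membrane collagen IV. Mmp2 was abundant and lay within 1.5 times, with 315.1 RPM in WT against 233.3 RPM in Igfbp7-/- (-0.43, -0.49 to -0.37). Mmp9 was scarce and higher in Igfbp7-/-, with 29 reads (0.845 RPM) and 65 reads (1.86 RPM; 1.05, 0.19 to 2.10), and it passed the minimum only through the library where it was higher. The RPKM of Mmp2 was 386.9 times that of Mmp9 in WT and 130.4 times in Igfbp7-/-.

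Among the membrane-anchored MMPs, 4 of 6 (66.7%) were lower and 1 (16.7%) was higher, against 23.0% and 21.4% of all genes. Mmp14 (MT1-MMP), a collagenase of the cell surface that activates the precursor of Mmp2 with the help of Timp2, had 226.5 RPM in WT against 136.0 RPM in Igfbp7-/- (-0.74, -0.81 to -0.66). Mmp25, a GPI-anchored MMP known from leukocytes, had 378 reads (11.0 RPM) in WT against 81 reads (2.31 RPM) in Igfbp7-/-, 4.76 times lower (-2.20, -2.76 to -1.74). Mmp15 (MT2-MMP) was the only membrane-anchored gene that was higher, with 8.59 RPM in WT against 21.9 RPM in Igfbp7-/- (1.34, 1.07 to 1.63). Thus the transmembrane enzymes Mmp14 and Mmp15 differed in opposite directions, and the RPKM of Mmp14 was above that of Mmp15 in both libraries, 87.2 against 1.98 in WT and 52.4 against 5.03 in Igfbp7-/-. Mmp16 (44 and 10 reads) and Mmp17 (98 and 62 reads) were lower on few reads, and Mmp24 (131 and 122 reads) lay within 1.5 times. Mmp16 (1.28 and 0.286 RPM) passed the minimum only through WT, the library where it was higher. With rescaling to the listed genes, Mmp14 and Mmp17 no longer reached 1.5 times.

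The other secreted MMPs outside the cluster that reached 1 RPM were not among the lower members. Mmp11 (stromelysin-3), which is activated inside the cell by furin and is known from stroma next to remodeling epithelium, had 46 reads (1.34 RPM) in WT against 143 reads (4.08 RPM) in Igfbp7-/- (1.54, 0.92 to 2.36). Mmp19, an enzyme of basement membrane substrates, had nearly equal levels of 71.3 and 77.8 RPM (0.13, 0.01 to 0.24). Mmp23 (74 and 70 reads) and Mmp28 (epilysin, 37 and 26 reads) lay within 1.5 times with intervals that held 0. Their intervals reached down to -0.82 and -1.72, so they also held ratios of 1.5 times lower. Mmp21 had 13 and 7 reads and was below the minimum. The annotated exons of Mmp19 share 789 bases with 1110012D08Rik on the opposite strand, which itself had 115 and 47 reads. Those of Mmp24 share 637 bases with BC029722 (149 and 117 reads), and those of Mmp28 share 465 bases with 1700020L24Rik (28 and 9 reads), so the low values of Mmp24 and Mmp28 are uncertain.

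The ADAMTS proteases that cut proteoglycans were led by Adamts1, which had 862.3 RPM in WT against 401.9 RPM in Igfbp7-/-, 2.15 times lower (-1.10, -1.14 to -1.06). Adamts4, known as an aggrecanase, had 273.0 and 95.6 RPM (-1.51, -1.59 to -1.43), and Adamts9, which cuts versican, had 165.1 and 63.3 RPM (-1.38, -1.49 to -1.28). The annotated exons of Adamts9 share 1381 bases with A730049H05Rik on the opposite strand, which had 185 and 149 reads against 5668 and 2216 for Adamts9. Adamts5, the other main aggrecanase, was less different, with 91.4 and 73.2 RPM (-0.32, -0.43 to -0.21). Versican itself (Vcan), the common substrate of this group, had 463.6 RPM in WT against 161.5 RPM in Igfbp7-/- (-1.52, -1.58 to -1.46), while aggrecan (Acan) had 2 reads in each library. Adamts1, Adamts4 and Adamts9 were thus lower in the same library as versican.

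In contrast, Adamts8 and Adamts15 were not lower. Adamts8 had 10.5 RPM in WT against 16.4 RPM in Igfbp7-/- (0.63, 0.36 to 0.91), and Adamts15 had 18.5 and 23.2 RPM (0.33, 0.12 to 0.55). These genes are neighbors on chromosome 9, 20.1 kb apart and on opposite strands, far from the MMP cluster. Adamts1 and Adamts5 are likewise neighbors, 55.1 kb apart on the minus strand of chromosome 16, but their intervals did not overlap. Adamts20 had 30 and 31 reads and was below the minimum.

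The procollagen N-proteinases remove the amino-terminal propeptide of fibrillar collagens. Adamts2, the most abundant of them, had 31.3 RPM in WT against 37.4 RPM in Igfbp7-/- (0.26, 0.09 to 0.43), while Adamts3 (9.21 and 4.06 RPM) and Adamts14 (7.11 and 4.14 RPM) were lower. The summed RPKM of the group was nearly equal, 10.9 in WT and 11.3 in Igfbp7-/-. Their substrates Col1a1 (1529.6 and 893.7 RPM) and Col3a1 (4670.2 and 1950.5 RPM) were lower.

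Of the other 9 ADAMTS genes, 7 reached 1 RPM, of which 5 (71.4%) were lower and 1 (14.3%) was higher. Over all genes, 23.0% were lower and 21.4% higher. Adamts7 and Adamts12, which cut cartilage oligomeric matrix protein, had 21.9 and 70.3 RPM in WT and 9.42 and 43.1 RPM in Igfbp7-/- (-1.21 and -0.70). The annotated exons of Adamts7 share 122 bases with Tbc1d2b on the opposite strand, which had more reads than Adamts7, 2238 and 1288 against 751 and 330. Adamts6 (51 and 21 reads), Adamts17 (66 and 37 reads) and Adamts18 (90 and 33 reads) were lower at low levels. Of these, Adamts6 and Adamts18 passed the minimum only through WT, the library where they were higher. The highest ratio of the 38 members past 1 RPM was that of Adamts16, with 26 reads (0.757 RPM) in WT against 152 reads (4.34 RPM) in Igfbp7-/-, 5.73 times higher (2.37, 1.66 to 3.49). It passed the minimum only through the library where it was higher, and its log2 ratio was 1.60 with a pseudocount of 1 RPM. Adamts10, which binds fibrillin, lay within 1.5 times at 6.85 and 5.20 RPM. Adamts13, the protease of von Willebrand factor, had 4 and 1 reads and Adamts19 had 2 and 12 reads, both below the minimum. Adamts12 and Adamts14 were within 1.5 times after rescaling to the listed genes.

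Of the 4 inhibitors, 3 were lower, where 23.0% of all genes were lower and 21.4% higher. Timp3, which stays bound to the matrix and also blocks ADAMTS and ADAM proteases, had the second highest RPKM of all members in WT. It had 867.6 RPM in WT against 457.1 RPM in Igfbp7-/-, 1.90 times lower (-0.92, -0.96 to -0.89). Timp4 had 424 reads (12.4 RPM) in WT against 98 reads (2.80 RPM) in Igfbp7-/-, 4.41 times lower (-2.10, -2.62 to -1.69). Timp1, the inhibitor that is typically induced by growth factors and cytokines, had 10.3 and 6.23 RPM (-0.72, -1.09 to -0.38) and lay within 1.5 times after rescaling to the listed genes. Timp2 was the exception, with 393.6 RPM in WT against 494.1 RPM in Igfbp7-/- (0.33, 0.28 to 0.37).

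The order of Timp3 and Timp2 was therefore reversed. Timp3 made up 59.1% of the summed TIMP RPKM in WT and 40.3% in Igfbp7-/-, whereas Timp2 went from 34.5% to 56.1%. Timp1, Timp3 and Timp4 each lie inside a synapsin gene on the opposite strand. For Timp3 the annotated exons share 1733 bases with Syn3, which had 34 and 87 reads, few against the 29782 and 16006 reads of Timp3. Syn1 (16 and 11 reads) and Syn2 (136 and 150 reads) share no exonic bases with Timp1 and Timp4.

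Summed over each family, the 23 MMP genes had 749.7 RPKM in WT and 362.3 RPKM in Igfbp7-/-, a log2 ratio of -1.05, and the 19 ADAMTS genes had 324.3 and 158.8 RPKM (-1.03). For all named genes the sums were 425698.6 and 320686.4 RPKM (-0.41), and for the TIMPs they were 313.8 and 242.4 RPKM (-0.37). As a result, the TIMP sum was 0.419 of the MMP sum in WT and 0.669 in Igfbp7-/-, and it was 0.968 and 1.53 of the ADAMTS sum. Within the TIMP sum, Timp2 went from 108.3 RPKM in WT to 135.9 RPKM in Igfbp7-/-. Timp3, the inhibitor named above as also blocking ADAMTS proteases, went from 185.3 to 97.6 RPKM and was thus lower along with the ADAMTS sum. For the set that acts together at the cell surface, Timp2 was at 1.06 times the RPKM of Mmp2 in WT and at 1.79 times in Igfbp7-/-. Mmp3 alone made up 50.4% of the MMP sum in WT and 49.4% in Igfbp7-/-, while Mmp12 and Mmp13 went from 68.4 and 67.1 RPKM in WT to 8.37 and 6.50 RPKM in Igfbp7-/-. These are ratios of transcripts, and protein or activity was not measured.

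**Figure D4:**
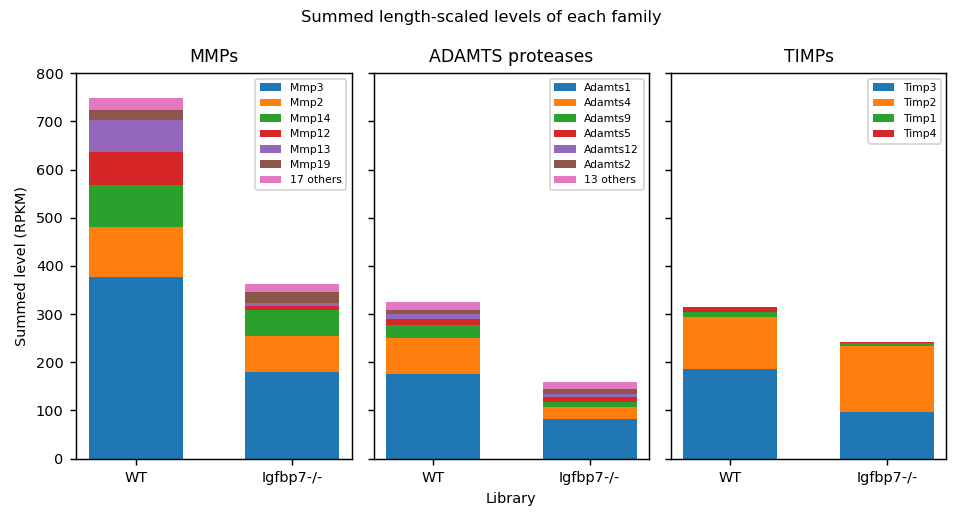
Summed RPKM of the MMP, ADAMTS and TIMP genes in the WT and Igfbp7-/- library, stacked by gene from an axis that starts at 0, with 1 library per bar and no error bars. The MMP and ADAMTS bars are shorter by about the same factor, whereas the TIMP bar changes mainly in the shares of Timp3 and Timp2.

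Genes around these proteases were taken from hand-written lists. These lists were chosen with earlier results of these data known, and their counts stand beside the 23.0% of all genes that were lower and the 21.4% that were higher. Among matrix substrates, 15 of 21 genes past 1 RPM (71.4%) were lower and 1 (4.76%) was higher, with a median log2 ratio of -1.0. The largest differences among substrates with at least 10 RPM were those of Nid2 (nidogen-2, which links laminin and collagen IV in basement membranes; 84.3 and 8.94 RPM) and Lama3 (a laminin chain; 404.9 and 75.3 RPM). Of 19 partners and regulators, 4 (21.1%) were lower and 6 (31.6%) were higher, with a median of -0.19, and with a ratio of at least 2 these counts were 2 and 2. Itgav, the integrin alpha V chain, was higher (253.1 and 704.8 RPM), and Cd44, a hyaluronan receptor that can hold MMPs at the cell surface, was lower (773.4 and 346.9 RPM). Of 10 genes of the ADAM family, 3 were lower and 2 higher with a median of 0.01. After rescaling to the listed genes, 1 was lower. Among the ADAM genes with at least 10 RPM in 1 library, Adam19 (57.0 and 25.8 RPM) and Adam8 (9.67 and 16.8 RPM) had the ratios furthest from 1. The ADAMTS-like genes, which resemble ADAMTS proteases but lack the catalytic domain, were higher in 3 of 6 cases (50.0%) and lower in none, with a median of 0.50. Thsd4 (ADAMTSL6), which promotes fibrillin microfibrils, had 83 reads (2.42 RPM) in WT against 1320 reads (37.7 RPM) in Igfbp7-/-, and Adamtsl4 had 20.1 and 36.1 RPM.

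Several cell types that can make these enzymes had lower marker transcripts in the same library, and in bulk RNA fewer cells of a type and less RNA per cell cannot be told apart. The marker counts below stand beside the 23.0% of all genes that were lower and the 21.4% that were higher. Beside Mmp12 and Mmp13, the 9 macrophage markers summed to 138.0 RPM in WT against 57.8 RPM in Igfbp7-/-, with 6 lower, none higher and none at 0. The list held 10 symbols, of which Emr1 and Adgre1 name the same gene. The log2 ratios of the macrophage markers ran from -2.47 to 0.39, and those of the 6 Langerhans and dendritic cell markers from -5.68 to -2.22. Those of Mmp12 and Mmp13 were -3.03 and -3.36. Beside Mmp2, Mmp3, Mmp14 and the TIMPs, the 10 fibroblast markers summed to 11182.1 and 6082.1 RPM, with 6 lower, none higher and none at 0. Of these 10 markers, 9 had log2 ratios below 0. Pdgfra, a receptor of fibroblasts, was the 1 above 0 and was among the 4 within 1.5 times, at 97.0 and 132.8 RPM. In the list of substrates, 5 of the 10 markers appear again. Transcripts of the depleted cells were present in both libraries, with Ptprc (CD45) at 43.5 and 18.1 RPM and Pecam1 (CD31) at 322.5 and 88.9 RPM.

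Beside Mmp25 and Mmp8, the 8 neutrophil markers summed to 48.0 and 37.0 RPM, with 3 of the 4 past 1 RPM lower and Ly6g at 0 reads in WT. Beside Adamts1, Adamts4 and Adamts9, the 8 endothelial markers summed to 1334.1 and 428.9 RPM with 7 lower, and the 6 pericyte markers summed to 178.1 and 143.5 RPM with 4 lower. The 8 myoepithelial markers summed to 3585.8 and 1108.7 RPM with 7 lower, the 6 adipocyte markers to 568.3 and 192.9 RPM with 3 lower and 1 higher, the 4 common leukocyte markers to 124.2 and 41.0 RPM with 4 lower, and the 6 Langerhans and dendritic cell markers to 779.1 and 85.1 RPM with 6 lower. The labelled cell type was present in both, since the 8 markers of milk-secreting epithelium summed to 87680.5 and 34038.6 RPM, with the milk proteins lower and the keratins Krt8 (268.1 and 789.0 RPM) and Krt18 (250.4 and 1173.8 RPM) higher. The part of these cell types in the lower protease and TIMP transcripts was not tested.

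**Figure D5:**
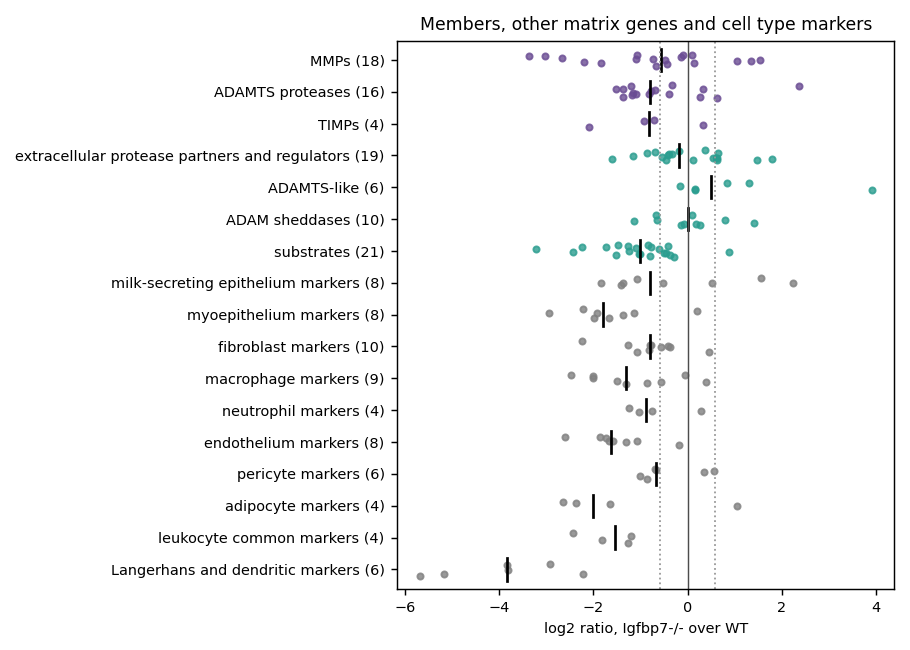
Log2 ratio of Igfbp7-/- to WT for genes past 1 RPM in the 3 families (purple), the lists of related matrix genes (green) and the cell type marker lists (gray); each point is 1 gene, the black bar is the median of the list, the number of genes is in brackets and dotted lines mark 1.5 times. The 3 families and the substrates have medians between -1.0 and -0.57, the ADAM and ADAMTS-like genes have medians of 0.01 and 0.50, and all 10 marker lists have medians below 0.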

How the data were processed

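MECs were isolated from WT and Igfbp7-/- glands, and poly(A) RNA was sequenced on a SOLiD instrument (1 library per genotype). Per the submitters' processing notes, Bowtie 0.12.3, SAMtools 0.1.15 and build mm9 were used, whereas the methods of the study name a human build. The gene annotation and the use of strand in counting are not given in the sources used here. The authors deposited raw counts per gene, RPM (counts scaled to all mapped reads) and RPKM (RPM per kilobase of gene). The listed genes held 82.4% (WT) and 72.3% (Igfbp7-/-) of the mapped reads, so RPM are lower in the library with more reads elsewhere. Rows without a symbol, 0.0495% and 0.0670% of the listed reads, were left out.

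Ratios, the minimum of 1 RPM and the ratio of 1.5 are as given above. Low counts were mostly even (75.8% and 74.1% of genes with 1 to 20 reads), so intervals were computed on counts divided by 2 and rounded up, without the added 0.1 RPM. The members and gene lists were chosen with earlier results of these data known. Every member with at least 1 RPM was named, and in each list the 2 genes with at least 10 RPM whose ratio was furthest from 1, with further list genes named as substrates or markers after their values were seen. Alternatives were other pseudocounts, minimums, ratios and scalings, including TMM factors from edgeR 4.0.16 on the counts. The functions were tested on simulated data. Gene positions were from GENCODE vM1 on NCBIM37, and promoters were found for 32 of 46 members in RefSeq, GRCm38.p6. Python 3.11.15, numpy 2.4.6, scipy 1.17.1, pandas 2.3.3, matplotlib 3.10.9, blastn 2.17.0 and R 4.3.3 were used.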

Additional observations from a re-analysis of the deposited data

Results flagged for a closer look

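Of the members left out of the counts because they stayed below 1 RPM, 3 had a higher RPM in the Igfbp7-/- than in the WT library. Adamts19 had 12 reads in Igfbp7-/- and 2 reads in WT, with a log2 interval of -0.49 to 8.08. Mmp7 had 9 reads and 0 reads, and Adamts20 had 31 and 30 reads. The intervals of all 3 held 0, so none of these differences was detectable at this depth.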

How the results depend on the processing

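The number of lower members stayed within 1.5 times of 22 under all 12 alternatives. With a ratio of at least 2 it was 15 (39.5% of members, where 13.8% of all genes were lower). Without a minimum it was 26 (57.8% of members, where 26.2% of all genes were lower). The number of higher members was 5. It moved to 3 with RPKM and to 2 with at least 10 RPM in 1 library. With at least 1 RPM in both libraries it was 3. Fewer members passed the minimum in these settings (29, 23 and 32), and 20.8%, 20.7% and 19.9% of all genes were higher. The median log2 ratio of the members ran from -0.92 with at least 10 RPM to -0.53 with rescaling to the listed genes minus ribosomal and small nuclear RNA. No called member changed sign. Under that rescaling Adamts12, Adamts14, Mmp14, Mmp17 and Timp1 fell short of 1.5 times, a pseudocount of 1 RPM did the same for Adamts17 and Mmp17, and Adamts17 was not called when the interval also had to leave out 1. Among all called genes, the share that was lower went from 51.8% to 37.0% with that rescaling, and among called members from 81.5% to 77.3%. Of the counts for the related lists, 7 values moved by over 1.5 times and 89 did not. With a ratio of at least 2, partners and regulators had 2 higher and 2 lower, and the ADAM genes 1 and 1. At that ratio the substrates had 0 higher. The ADAM genes had 1 higher with at least 10 RPM in 1 library and 1 lower after the rescaling. TMM scaling changed no call among the members counted in both. No replicate could be left out, because each genotype had 1 library, and the variation between animals is unknown. No paired analysis was possible because each genotype had 1 library and no test was made.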
